A study of Homo sapiens with 6 samples.

Results

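Most tight junction, adherens junction and desmosome genes differed little between PC9/gef and PC9 cells, and the largest changes in the list were a lower GJB5, a higher PKP1, a lower GJB2 and a lower CLDN12. The 42 genes of the list encode claudins and other tight junction proteins, cell polarity proteins, desmosomal proteins, catenins, cadherins, nectins, connexins and the epithelial splicing regulator ESRP1. They were read from every probe set annotated to exactly 1 of them, which gave 90 of 54613 probe sets and 41 of 19775 genes. CTNND1, the gene of p120 catenin, had no probe set of its own, because its 4 probe sets were also annotated to another gene, and it was not analysed here.
PC9/gef is the gefitinib-resistant line that was selected from PC9 by exposure to rising concentrations of gefitinib, an inhibitor of the EGFR kinase, and PC9 is the gefitinib-sensitive lung adenocarcinoma line it came from. RNA of 3 PC9/gef and 3 PC9 samples was hybridized to Affymetrix arrays, 1 array per sample. The samples of each line are labelled as biological replicates, and both lines were grown in the same medium with serum. Each line was compared as a single resistant or sensitive line, so the replicate spread does not include the spread between independently selected resistant lines.

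Epithelial cells are held together by several kinds of junction. At tight junctions, claudins, occludin and related membrane proteins seal the space between neighbouring cells and are tied to actin by plaque proteins of the ZO family, while the Crumbs and PAR polarity complexes place the junction at the border between the apical and lateral membrane. Desmosomes couple the keratin filaments of neighbouring cells through desmocollins and desmogleins, plakophilins, plakoglobin and desmoplakin. Gap junctions are channels of connexins that let ions and small molecules pass from cell to cell. In lung adenocarcinoma such genes are commonly used as markers of the epithelial state, and the study asked which genes differ between the sensitive and the resistant cells.

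All values are on the log2 scale as deposited, so 1 unit is a doubling. The value of a gene is that of its brightest probe set, chosen by the mean over all 6 arrays, and because probe sets differ in how well they bind, the levels of different genes are not compared. Background level here means that neither line had a mean above 2.65, the value that 95% of 135 probe sets for olfactory receptors stayed under. Differences were tested with limma over all probe sets, with Benjamini-Hochberg adjustment and a threshold of 0.05, since with 3 arrays in each line the smallest two-sided p of an exact permutation test is 0.1. Within a line the arrays correlated at r = 0.9992 or more, and between lines at r = 0.9945 or less. The epithelial identity of both lines was seen in the markers, as all 8 epithelial markers, EPCAM and keratins among them, were above background level. NKX2-1, NAPSA, SFTPC and SFTPD, which mark the lung lineage, were at background level in both lines, while SFTPB, the fifth such marker measured, had a mean of 4.33 in PC9/gef and 4.31 in PC9. Of the markers of other cell types, 4 of 4 endothelial, 7 of 9 fibroblast and 4 of 6 leukocyte genes were at background level, PTPRC and PDGFRB included. Of those above it, the leukocyte genes were LYZ and ITGAM. LYZ was lower, with a mean of 7.69 in PC9/gef and 8.77 in PC9, and ITGAM had one of 4.93 in PC9/gef and 3.77 in PC9, which did not pass (adjusted p = 0.063). Of the fibroblast genes, COL1A1 had a mean of 8.46 in PC9/gef and 7.94 in PC9, and THY1 one of 2.70 in PC9/gef and 2.71 in PC9. The summed level of the leukocyte list was 8.0 to 8.03 in PC9/gef and 8.83 to 8.98 in PC9, that of the fibroblast list 8.55 to 8.67 in PC9/gef and 8.05 to 8.38 in PC9, and that of the epithelial list 16.81 to 16.83 in PC9/gef and 16.82 to 16.83 in PC9 (log2 of the sum of linear values). Their part in the results was not tested.

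Of the 41 junction genes measured, 10 were higher and 6 lower in PC9/gef, 16 failed to pass the test and 9 were at background level in both lines. Over all 19775 genes, 12.6% were higher and 11.8% were lower by the same rule, and among the 11955 genes above background level in at least 1 line, 20.9% were higher and 19.5% were lower. In either direction, 16 of the 32 junction genes above background level passed, beside 24.4% of all genes and 40.4% of those above background level. The changes were small: the median absolute log2 change was 0.17 among the 32 junction genes and 0.18 among all genes above background level. The median log2 change with its sign was 0.079 for the junction genes and -0.0098 for all genes above background level. The 10 higher genes had a median log2 change of 0.33 and the 6 lower genes one of -0.67, whereas the medians over all genes called were 0.41 and -0.40. Only GJB5 changed over 2-fold, a change found in 2.88% of all genes and in 4.77% of those above background level. Besides GJB5, the genes GJB2, CLDN12 and PKP1 passed the test with a change over 1.5-fold, which makes 12.5% of the 32 junction genes, the same share as among all genes above background level (12.5%, or 7.57% of all genes). The arrays of PC9/gef and PC9 did not overlap in 23 of the 32 genes, or 71.9%, and this was so in 65.0% of all genes above background level. In RNA from whole cultures, fewer cells with a transcript and less of it per cell cannot be told apart.

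**Figure D1:**
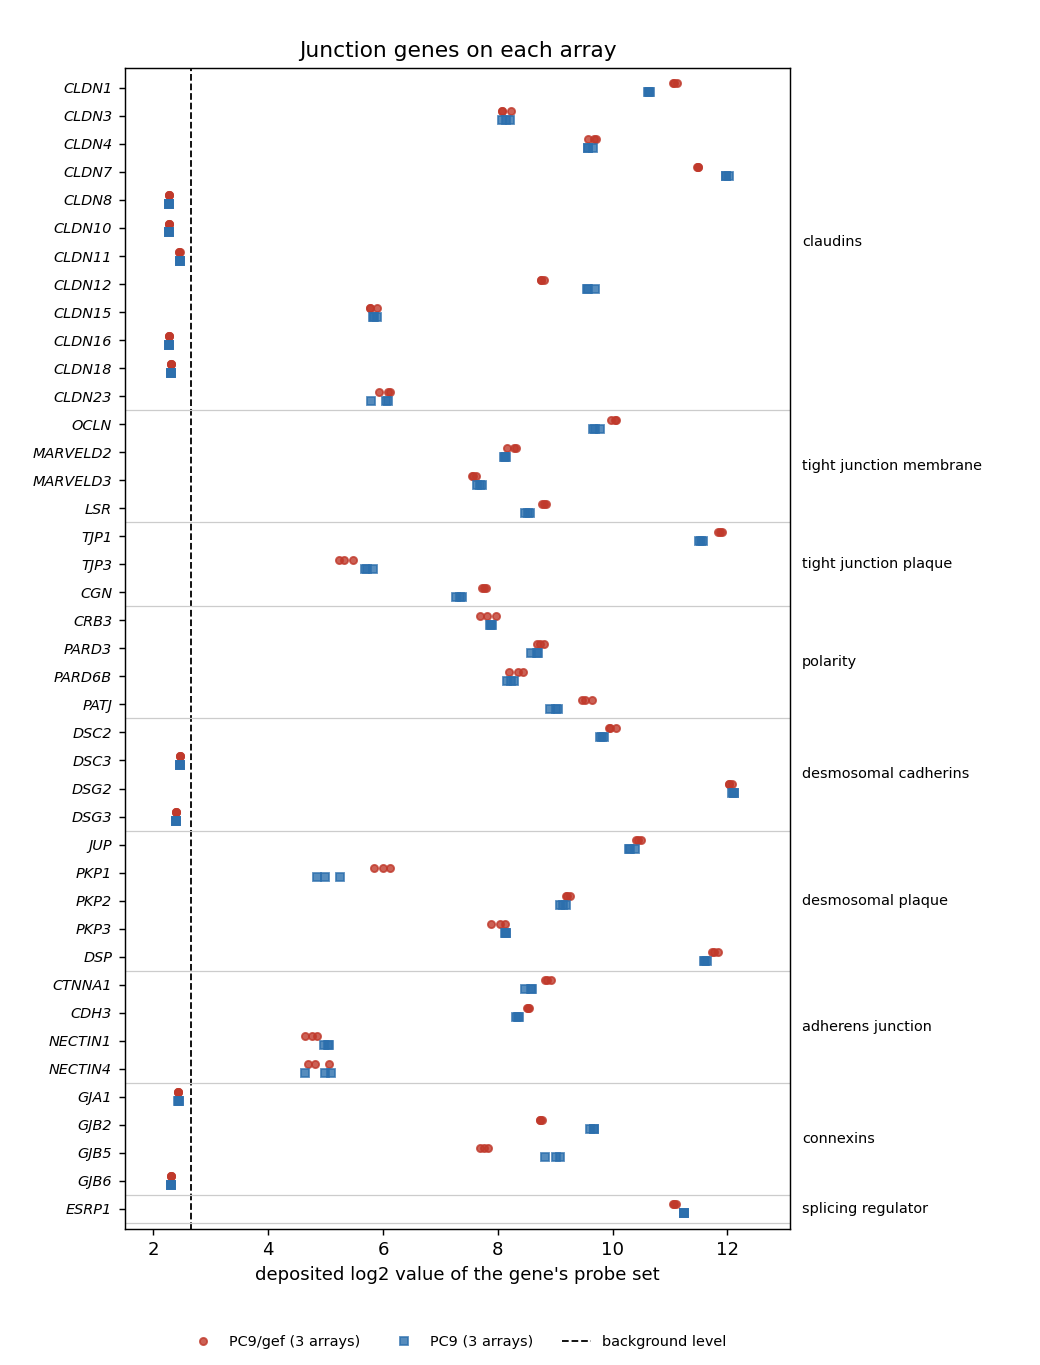
Deposited log2 value (x axis) of the 41 measured junction genes on each array, with 3 PC9/gef arrays as circles above 3 PC9 arrays as squares, grouped by role; the dashed line is the background level of 2.65. The points of the 2 lines lie close together in most genes, GJB5, GJB2, CLDN12 and PKP1 are the widest apart, and 9 genes lie left of the dashed line in both lines.

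Both connexin genes of the list that were above background level were lower in PC9/gef. GJB5, which encodes a connexin of stratified and other epithelia, had values of 7.69, 7.82 and 7.76 in PC9/gef and of 8.83, 9.01 and 9.08 in PC9. Every PC9/gef array was lower than every PC9 array, and the gene was 2.32-fold lower (log2 change -1.22, with a standard error, SE, of 0.081, adjusted p = 0.0017 from limma). GJB2, the connexin gene in which loss of function is a common cause of inherited deafness, had values of 8.78, 8.74 and 8.73 in PC9/gef and of 9.61, 9.67 and 9.68 in PC9. It was 1.87-fold lower (log2 change -0.90, SE 0.026, adjusted p = 0.00026), again with no overlap between the lines. GJB6, which lies next to GJB2 in the genome and can form mixed channels with it, was at background level in both lines, with a mean of 2.30 in PC9/gef and in PC9. GJA1, the most widely expressed connexin gene of human tissues, was also at background level, with a mean of 2.43 in PC9/gef and 2.44 in PC9. GJB5, GJB2, GJB6 and GJA1 each have a single probe set here, so no second probe set stands beside these values.
The further connexin and pannexin genes moved both ways. Of 12 measured, 2 were higher and 1 lower, 2 did not pass and 7 were at background level. GJA5, a connexin gene of heart muscle and arterial endothelium, was 3.0-fold lower, with values of 5.67, 5.73 and 5.77 in PC9/gef and of 7.29, 7.27 and 7.37 in PC9 (log2 change -1.59, SE 0.040, adjusted p = 0.00021 from limma). GJC1, a connexin gene of heart and smooth muscle, was 1.49-fold higher (log2 change 0.58, SE 0.067, adjusted p = 0.0083). PANX2, a member of the pannexins, whose channels resemble connexins in shape but not in sequence, was 1.57-fold higher (log2 change 0.65, SE 0.061, adjusted p = 0.0044). GJA3, which flanks GJB2 on the other side from GJB6, was at background level.

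The claudins split between a higher CLDN1, lower CLDN7 and CLDN12, and others with little or no difference. Of the 12 claudin genes of the list, 1 was higher and 2 lower, 4 did not pass and 5 were at background level. CLDN12, an atypical claudin that lacks the tail motif by which other claudins bind ZO proteins, had values of 8.76, 8.81 and 8.76 in PC9/gef and of 9.55, 9.58 and 9.70 in PC9. It was 1.78-fold lower with no overlap (log2 change -0.83, SE 0.045, adjusted p = 0.0011 from limma). CLDN7, a claudin found along the lateral membrane of many epithelia, had values of 11.47, 11.49 and 11.49 in PC9/gef and of 12.03, 11.97 and 11.97 in PC9, and was 1.42-fold lower (log2 change -0.51, SE 0.020, adjusted p = 0.00054). CLDN1, a barrier-forming claudin, had values of 11.12, 11.07 and 11.05 in PC9/gef and of 10.63, 10.62 and 10.65 in PC9. The lines did not overlap, and CLDN1 was 1.36-fold higher (log2 change 0.44, SE 0.022, adjusted p = 0.00084). Its second probe set gave a larger difference in the same direction, with values of 8.11, 8.03 and 8.07 in PC9/gef and of 7.36, 7.39 and 7.39 in PC9 (log2 change 0.69, adjusted p = 0.00043).
CLDN3 and CLDN4, which lie side by side in the genome and are frequently high in carcinomas, had values close to each other in the lines. The log2 change was -0.012 for CLDN3 (95% confidence interval -0.17 to 0.15) and 0.055 for CLDN4 (-0.086 to 0.20). CLDN15, a pore-forming claudin, had a log2 change of -0.043 (-0.15 to 0.065) and CLDN23 one of 0.074 (-0.20 to 0.35), so a 1.5-fold change in either direction lies outside each of these 4 intervals. CLDN8, CLDN10, CLDN11, CLDN16 and CLDN18 were at background level in both lines. CLDN18, of which 1 isoform marks alveolar epithelium, was at this level on all of its 4 probe sets. Of the further claudins, 5 of 9 measured were at background level and only CLDND1, a distant relative of the claudins, passed the test (1.47-fold lower, log2 change -0.56, SE 0.037, adjusted p = 0.0017). That is 11.1% of the 9, beside 24.4% of all genes.

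Of the 3 tight junction plaque genes of the list, TJP1 and CGN were higher in PC9/gef and TJP3 was lower. TJP1, which encodes ZO-1, the scaffold that ties claudins and occludin to actin, had values of 11.90, 11.84 and 11.87 in PC9/gef and of 11.57, 11.54 and 11.52 in PC9. It was 1.26-fold higher (log2 change 0.33, SE 0.023, adjusted p = 0.0019 from limma), and its second probe set gave a log2 change of 0.68 (adjusted p = 0.043). CGN, the gene of cingulin, a partner of ZO-1 at the plaque, had values of 7.73, 7.76 and 7.80 in PC9/gef and of 7.28, 7.38 and 7.35 in PC9, which is 1.34-fold higher (log2 change 0.43, SE 0.036, adjusted p = 0.0033). The second CGN probe set changed in the same direction but did not pass (log2 change 0.25, adjusted p = 0.18). TJP3, which encodes the related ZO-3, went the other way and was 1.32-fold lower (log2 change -0.40, SE 0.082, adjusted p = 0.043). Its arrays did not overlap, with 5.48, 5.24 and 5.31 in PC9/gef and 5.68, 5.83 and 5.72 in PC9, but its call was close to the threshold and held in 1 of the 6 fits that left out an array, the one without PC9/gef replicate 1 (adjusted p from 0.035 to 0.14 over the 6). The second TJP3 probe set changed in the same direction but did not pass (log2 change -0.35, adjusted p = 0.25).
Among the membrane proteins, LSR, which gathers tricellulin at the corners where cells meet, had values of 8.83, 8.80 and 8.78 in PC9/gef and of 8.48, 8.55 and 8.52 in PC9. It was 1.22-fold higher (log2 change 0.28, SE 0.027, adjusted p = 0.0044). OCLN, the gene of occludin, was 1.24-fold higher on its brightest probe set, with 9.97, 10.06 and 10.05 in PC9/gef and 9.77, 9.66 and 9.70 in PC9 (log2 change 0.31, SE 0.040, adjusted p = 0.011). The other probe sets of OCLN above background level did not show it, with log2 changes of -0.068 and -0.17 that did not pass the test, and the mean over all OCLN probe sets changed by 0.022 (adjusted p = 0.44). The call was also lost without PC9/gef replicate 3 (adjusted p = 0.051) or PC9 replicate 3 (0.054). MARVELD2, the gene of tricellulin, and MARVELD3 had log2 changes of 0.13 and -0.10 and did not pass (adjusted p = 0.12 and 0.097), although the arrays of the lines did not overlap in either. Read as the mean over its probe sets, MARVELD3 was lower (log2 change -0.13, adjusted p = 0.047).

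Of the polarity genes, PATJ was higher and the others did not pass the test on their brightest probe sets. PATJ, a multi-PDZ scaffold of the Crumbs complex, had values of 9.64, 9.47 and 9.51 in PC9/gef and of 9.01, 8.91 and 9.05 in PC9. The gene was 1.46-fold higher with no overlap (log2 change 0.55, SE 0.063, adjusted p = 0.0079 from limma). Its other probe sets above background level had log2 changes of 0.39 and 0.81, both upward, which did not pass (adjusted p = 0.21 and 0.059). CRB3, the membrane anchor of the same complex, had a log2 change of -0.062 (95% confidence interval -0.27 to 0.15) and PARD6B, an adaptor of the PAR complex, one of 0.098 (-0.11 to 0.30). PARD3, the scaffold of the PAR complex, was read differently by its probe sets. The brightest gave a log2 change of 0.085 (adjusted p = 0.26), whereas another, with 8.54, 8.51 and 8.43 in PC9/gef and 8.10, 8.19 and 8.20 in PC9, gave 0.33 and passed (adjusted p = 0.012). The Crumbs partner PALS1 was lower (log2 change -0.092, adjusted p = 0.040) and the PAR complex kinase gene PRKCI was higher (log2 change 0.20, adjusted p = 0.0046).
Of the 25 further tight junction and polarity genes measured, 4 were higher and 4 lower, 9 did not pass and 8 were at background level. The share called in either direction was 32.0%, beside 24.4% over all genes. The largest change was that of AMOTL1, an angiomotin-like scaffold, at 1.49-fold lower (log2 change -0.58, SE 0.059, adjusted p = 0.0058), while its relative AMOTL2 was 1.28-fold higher (log2 change 0.35, SE 0.029, adjusted p = 0.0030). LLGL2 and LLGL1, both of which set the basolateral domain, also went opposite ways, with log2 changes of -0.36 (adjusted p = 0.043) and 0.33 (adjusted p = 0.032). SCRIB, a partner of both, had a log2 change of -0.27 (adjusted p = 0.027).

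**Figure D2:**
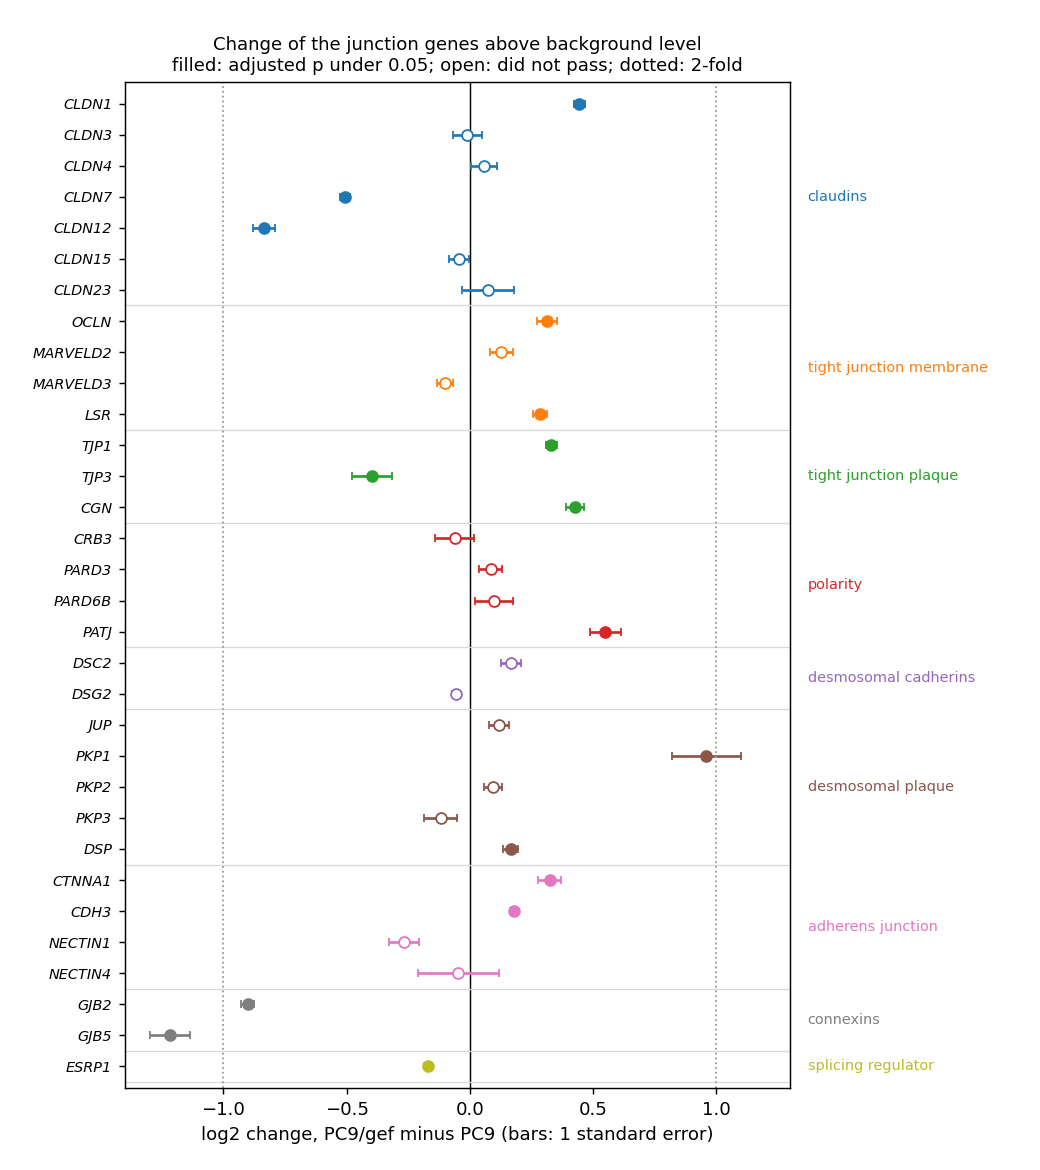
Difference in log2 value (PC9/gef minus PC9) of the 32 junction genes above background level in at least 1 line, grouped and coloured by role. Each bar is 1 SE to either side, and filled points passed the test; GJB5 alone lies beyond the 2-fold line, and all but 4 of the 32 genes either did not pass or changed less than 1.5-fold.

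Of the 9 desmosome genes of the list, PKP1 and DSP were higher in PC9/gef, 5 did not pass the test and 2 were at background level. Over all genes, 12.6% were higher and 24.4% were called in either direction. PKP1, a plakophilin of the suprabasal layers of stratified epithelia, had values of 5.83, 6.01 and 6.13 in PC9/gef and of 5.25, 4.84 and 5.00 in PC9. It was 1.94-fold higher without overlap (log2 change 0.96, SE 0.14, adjusted p = 0.017 from limma). The other PKP1 probe set was at background level, with a mean of 2.14 in PC9/gef and in PC9, so the change rests on 1 probe set. This gene has the widest spread within a line of the 4 with a change over 1.5-fold (SD 0.15 in PC9/gef and 0.21 in PC9, n = 3 each), and it did not pass in the fits without PC9/gef replicate 3 (adjusted p = 0.063), PC9 replicate 2 (0.052) or PC9 replicate 3 (0.073). Without PC9/gef replicate 1 or PC9 replicate 1 its change was over 2-fold. DSP, the gene of desmoplakin, which links the plaque to keratin filaments, had values of 11.77, 11.74 and 11.84 in PC9/gef and of 11.59, 11.64 and 11.61 in PC9. It was 1.12-fold higher (log2 change 0.17, SE 0.031, adjusted p = 0.033) and passed in 2 of the 6 fits that left out 1 array, not without PC9/gef replicate 1 (adjusted p = 0.090) or any of PC9 replicates 1, 2 and 3 (0.12, 0.082 and 0.11). The other plakophilins and plakoglobin did not pass, with log2 changes of 0.095 for PKP2, -0.12 for PKP3 and 0.12 for JUP.
The desmosomal cadherins expressed in these cells were DSC2 and DSG2, the pair found in simple epithelia. DSC2 had values of 9.95, 9.94 and 10.06 in PC9/gef and of 9.84, 9.82 and 9.78 in PC9, and its log2 change of 0.17 did not pass (adjusted p = 0.061). DSG2 had values of 12.04, 12.03 and 12.08 in PC9/gef and of 12.09, 12.11 and 12.12 in PC9, a log2 change of -0.056 that did not pass either (adjusted p = 0.091). A second DSG2 probe set had 7.78, 7.62 and 7.58 in PC9/gef and 8.09, 8.07 and 8.01 in PC9, and was lower (log2 change -0.40, adjusted p = 0.020), so the probe sets differ in the size of the change. DSC3 and DSG3, the partners found in the lower layers of stratified epithelia, were at background level in both lines, and so were DSC1, DSG1 and DSG4. Of the 8 further desmosome genes measured, only PPL passed (12.5%, beside 24.4% of all genes). PPL encodes periplakin, a relative of desmoplakin, and was 1.61-fold lower (log2 change -0.69, SE 0.043, adjusted p = 0.0015).

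Adherens junction genes of the list were slightly higher or did not pass. CDH3, the gene of P-cadherin, had values of 8.53, 8.54 and 8.51 in PC9/gef and of 8.37, 8.35 and 8.32 in PC9, and was 1.13-fold higher (log2 change 0.18, SE 0.016, adjusted p = 0.0041 from limma). CTNNA1, the gene of alpha-catenin, which connects cadherins with actin, was 1.25-fold higher, with 8.86, 8.93 and 8.82 in PC9/gef and 8.59, 8.58 and 8.47 in PC9 (log2 change 0.32, SE 0.047, adjusted p = 0.016). A second probe set of CTNNA1 was also higher (log2 change 0.27, adjusted p = 0.027), but all of its probe sets above background level have names ending in _x_at or _s_at, which marks probes that can bind related transcripts. The probe sets of CGN and LSR above background level also have names of this kind. The call of CTNNA1 was lost without PC9/gef replicate 1 (adjusted p = 0.062) or PC9 replicate 2 (0.057). NECTIN1, which encodes an adhesion molecule that initiates cell contacts, had a log2 change of -0.27 (adjusted p = 0.058), with no overlap between 4.64, 4.85 and 4.76 in PC9/gef and 5.04, 5.05 and 4.97 in PC9. NECTIN4, the target of an antibody-drug conjugate used in bladder cancer, had a log2 change of -0.048 with a wide interval (-0.49 to 0.39).
Changes over 2-fold were also found outside the list. PLEKHA7, whose protein binds p120 catenin at the junction, was 2.46-fold lower (log2 change -1.30, SE 0.10, adjusted p = 0.0025), and NECTIN3, a partner of NECTIN1, was 2.18-fold lower (log2 change -1.12, SE 0.12, adjusted p = 0.0064). CDH1, the gene of E-cadherin, was 1.14-fold higher, with 11.78, 11.82 and 11.83 in PC9/gef and 11.59, 11.63 and 11.65 in PC9 (log2 change 0.19, SE 0.023, adjusted p = 0.0098). CTNNB1, the gene of beta-catenin, was 1.28-fold lower (log2 change -0.36, SE 0.028, adjusted p = 0.0027). Of 67 further junction genes measured in all, 8 were higher and 10 lower, 23 did not pass and 26 were at background level. Called in either direction were 26.9% of the 67, beside 24.4% of all genes.

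**Figure D3:**
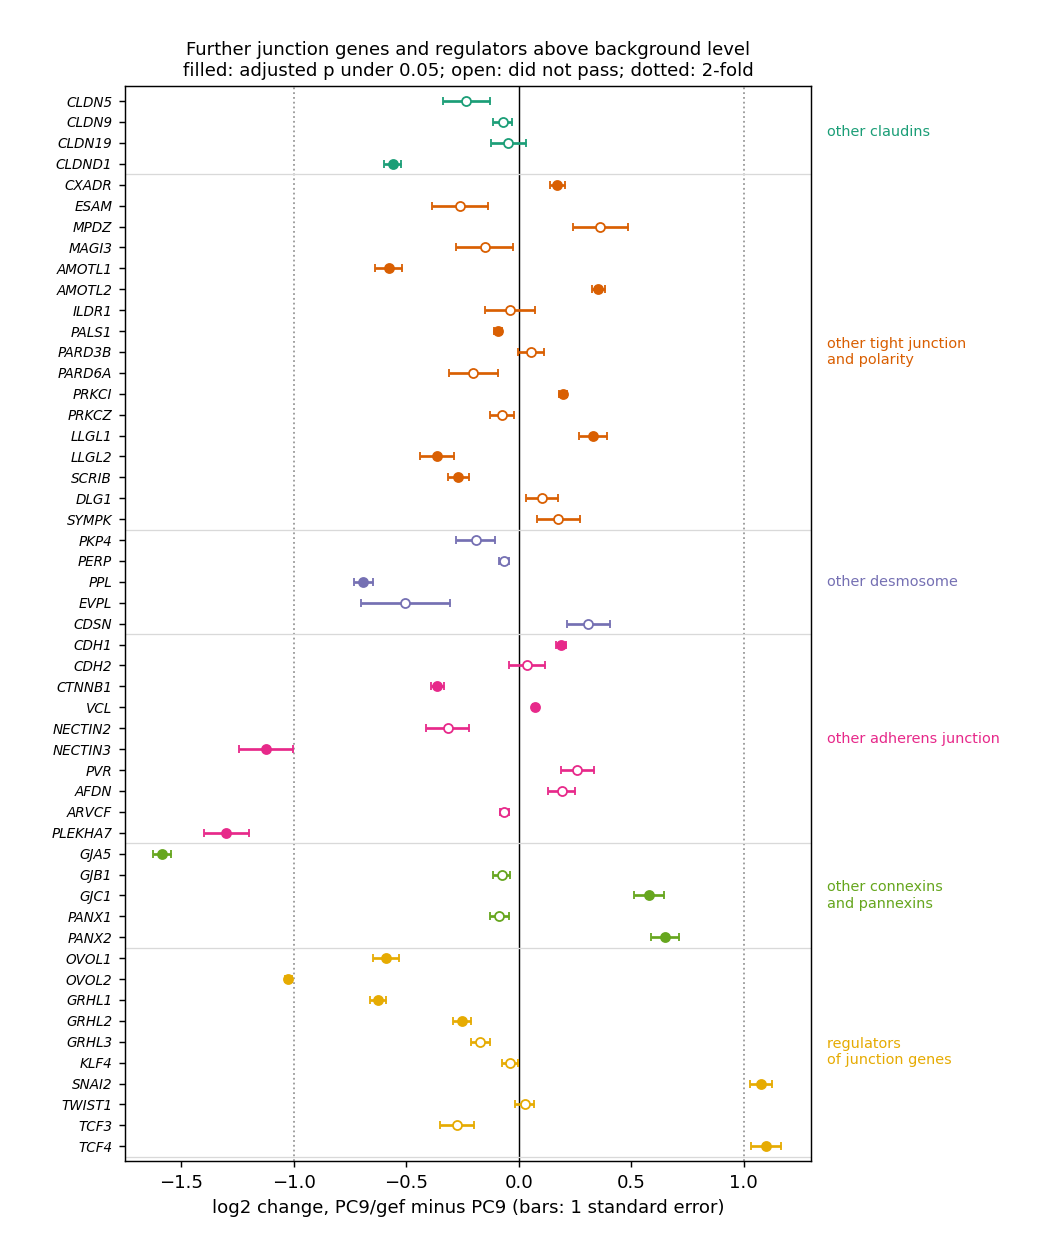
Difference in log2 value (PC9/gef minus PC9) of further junction genes and of regulators of junction genes above background level, by list. Each bar is 1 SE to either side, and filled points passed the test; GJA5, PLEKHA7, NECTIN3 and OVOL2 lie below the lower 2-fold line, and SNAI2 and TCF4 above the upper one.

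Counted as probe sets, 14 of the 90 were higher and 8 lower, 34 did not pass and 34 were at background level. Of all 54613 probe sets, 7.61% were higher and 7.68% were lower, or 15.3% in either direction, beside 24.4% of the 90. Among probe sets above background level, 39.3% of those of junction genes were called in either direction, beside 32.9% of all. At least 2 probe sets above background level were found for 16 of the 32 genes. In 13 of these 16 genes all such probe sets changed in 1 direction, and in none of the 16 was 1 probe set called higher and another lower. CLDN1, TJP1, CTNNA1 and ESRP1 each had 2 probe sets called in the same direction. OCLN, PARD3 and DSC2 had probe sets with changes of both signs.
ESRP1, which directs epithelial splicing of adhesion and receptor genes such as CD44 and FGFR2, was lower on both of its probe sets. The brightest had 11.07, 11.11 and 11.05 in PC9/gef and 11.24, 11.24 and 11.25 in PC9, which is 1.13-fold lower (log2 change -0.17, SE 0.017, adjusted p = 0.0049 from limma). The second had 9.45, 9.44 and 9.49 in PC9/gef and 9.75, 9.75 and 9.77 in PC9, a log2 change of -0.30 (adjusted p = 0.00095). No array of PC9/gef reached the lowest PC9 array on either probe set.

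**Figure D4:**
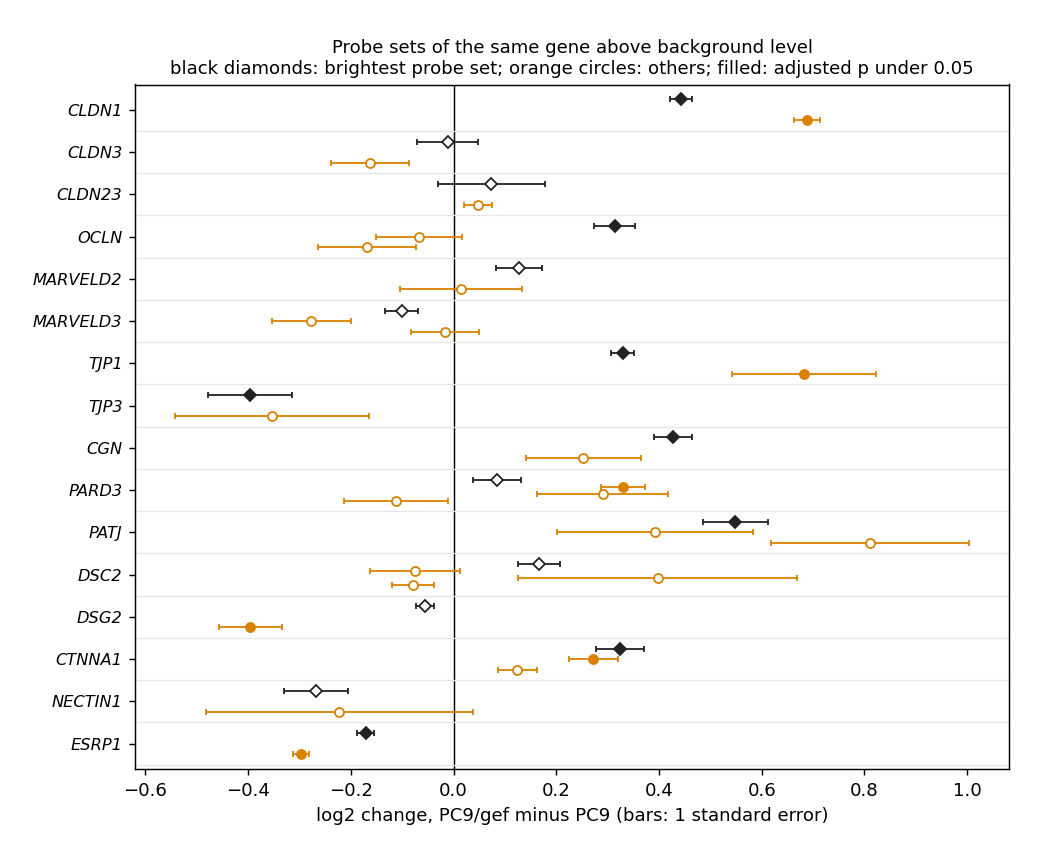
Difference in log2 value (PC9/gef minus PC9), with bars of 1 SE, of each probe set above background level for the 16 junction genes that have more than 1. Black diamonds are the brightest probe set of a gene and orange circles the others, filled where the call was made; OCLN, PARD3 and DSC2 have points on both sides of 0.

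Transcription factors known to act on junction genes also differed between the lines. SNAI2, the gene of Slug, a repressor of E-cadherin and other epithelial genes, was 2.11-fold higher, with 8.17, 8.22 and 8.13 in PC9/gef and 7.01, 7.15 and 7.14 in PC9 (log2 change 1.08, SE 0.049, adjusted p = 0.00072 from limma). OVOL2, a repressor of mesenchymal genes that helps to keep the epithelial state, was 2.03-fold lower, with 7.41, 7.42 and 7.39 in PC9/gef and 8.46, 8.40 and 8.43 in PC9 (log2 change -1.02, SE 0.016, adjusted p = 8.6e-05). These factors were read from the same arrays as the junction genes, and no link between them was tested. TCF4, an E-protein, was 2.14-fold higher (log2 change 1.10, SE 0.066, adjusted p = 0.0014), and GRHL1, a grainyhead factor of epithelial cells, was 1.54-fold lower (log2 change -0.63, SE 0.036, adjusted p = 0.0012). Of the 15 regulators measured, 2 were higher and 4 lower, 4 did not pass and 5 were at background level, among them SNAI1, ZEB1 and ZEB2. Called in either direction were 40.0% of those measured, beside 24.4% of all genes. Above background level the shares were 60.0% of the regulators and 40.4% of all genes.
Slug and ZEB proteins bind the E-box CACCTG, one of the sequences of the general form CANNTG. The promoters of the junction genes, taken as 250 bases before to 50 bases after each start in RefSeq (GRCh38.p14), were searched for it on both strands, as CACCTG or CAGGTG. RefSeq windows were given for 30 of the 42 genes, 45 windows in all, and 16 of the 45 held the E-box (35.6%), beside 20.6% of all 35116 windows. Windows with 4 or more were 2 of the 45 (4.44%) and 0.168% of all windows. These 2 belong to CLDN7, which was lower, and CRB3, which did not pass the test, while PATJ, with 3, was higher and GJB2, with 1, was lower. They are shown because they carry the most copies, or belong to one of the genes with the largest changes, and do not share a direction. The capitals mark the E-boxes, each sequence is read 5′ to 3′ on the gene's strand, and a match is a description of these letters and not a binding site.
CLDN7 (chr17:7262429-7262728, minus strand): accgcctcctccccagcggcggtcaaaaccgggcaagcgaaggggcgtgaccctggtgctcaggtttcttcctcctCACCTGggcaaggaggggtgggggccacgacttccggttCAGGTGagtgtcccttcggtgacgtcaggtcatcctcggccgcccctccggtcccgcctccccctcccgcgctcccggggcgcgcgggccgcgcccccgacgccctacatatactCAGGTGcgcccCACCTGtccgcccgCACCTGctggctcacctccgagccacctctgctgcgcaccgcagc
CRB3 (chr19:6464021-6464320, plus strand): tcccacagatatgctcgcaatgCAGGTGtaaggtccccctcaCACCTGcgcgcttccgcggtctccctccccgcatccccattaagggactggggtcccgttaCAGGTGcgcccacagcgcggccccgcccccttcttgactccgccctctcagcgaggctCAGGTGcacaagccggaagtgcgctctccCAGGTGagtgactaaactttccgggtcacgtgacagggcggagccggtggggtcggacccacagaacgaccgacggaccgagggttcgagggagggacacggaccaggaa
PATJ (chr1:61742230-61742529, plus strand): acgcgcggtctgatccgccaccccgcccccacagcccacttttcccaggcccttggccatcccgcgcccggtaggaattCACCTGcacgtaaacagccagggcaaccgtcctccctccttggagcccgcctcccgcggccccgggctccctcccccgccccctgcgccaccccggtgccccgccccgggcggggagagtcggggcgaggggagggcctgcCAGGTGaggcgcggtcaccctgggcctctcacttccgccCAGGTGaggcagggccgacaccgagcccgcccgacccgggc
GJB2 (chr13:20192889-20193188, minus strand): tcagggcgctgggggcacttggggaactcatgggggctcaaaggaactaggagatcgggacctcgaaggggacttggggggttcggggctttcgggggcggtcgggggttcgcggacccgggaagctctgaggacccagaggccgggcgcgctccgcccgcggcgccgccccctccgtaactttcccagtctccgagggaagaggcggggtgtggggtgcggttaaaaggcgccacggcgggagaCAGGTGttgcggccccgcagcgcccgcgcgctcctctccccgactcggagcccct
The 5 copies in the CLDN7 window include a run of 3 close together near its end, and the 5 in the CRB3 window all lie before the start. A window at another CLDN7 start held 0. Of the 13 genes above background level with an E-box in at least 1 window, 4 were higher and 3 lower, and 6 did not pass. Of the 9 without one, 5 were higher and 1 lower, and 3 did not pass. The genes with an E-box had log2 changes from -0.90 to 0.55 and those without from -0.83 to 0.96. The median log2 change was -0.012 with an E-box and 0.28 without one, and this difference was not tested. Another promoter sequence, the GC box GGGCGG on either strand, was in 66.7% of the 45 windows and 45.0% of all windows, and the AP-1 sequence TGANTCA, which reads the same on both strands, was in 8.89% and 7.71%.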

How the data were processed

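Total RNA of 3 PC9/gef and 3 PC9 samples was hybridized to Affymetrix human arrays with 54675 probe sets. The authors turned the scans into 1 background-corrected and normalized value per probe set, and the deposited values are on the log2 scale, from 1.65 to 15.72. GC-RMA in GeneSpring GX is named in the study's supplementary methods, and the submitters' notes name RMA, whose versions are not given in the sources used here. The sorted values were the same on all 6 arrays, so no further normalization was applied. GC-RMA sets probe sets without signal to nearly constant values, so small differences at background level are not read as changes. The number of arrays limits the precision.

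The platform annotation gave the gene of each probe set, and gene symbols were looked up by gene ID in RefSeq. After leaving out 62 Affymetrix controls, 54613 probe sets were tested in limma 3.58.1 under R 4.3.3 (two-sided, Benjamini-Hochberg over these probe sets, threshold 0.05), after the code was tested on simulated data. Python 3.11.15 and matplotlib 3.10.9 made the plots. The RefSeq gene table was used only for names and gene order, and its coordinates are given only with a printed promoter.

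The members, the gene lists and the tests were chosen with earlier results of these data known. Values on each array were to be given for members above background level that passed with a change of at least 1.5-fold, and other lists were to name up to 4 genes, those that passed with the largest changes, plus CDH1, SNAI2, GJA3, DSG1, CTNNB1 and a few others that are not reported here. Other genes were named, and the GC box and AP-1 sequences added, after their values were seen. The alternatives were a fit with replicate number as block, fits without 1 array, limma with trend and robust moderation, quantile normalization, centring on the median, removal of dim probe sets, other ways to read a gene from its probe sets and the methods' t-test.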

Additional observations from a re-analysis of the deposited data

How the results depend on the processing

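GJB5, GJB2, CLDN12, CLDN7, CLDN1, TJP1, CGN and CDH3 kept their direction and passed the test under every alternative in which they could be read. Quantile normalization and median centring moved no call, since the arrays already share 1 distribution. The deviations of same-numbered arrays from their line means correlated at -0.025, 0.016 and 0.047, so the numbers do not pair the lines. With the replicate number as a block, which costs residual degrees of freedom, 6 genes were higher and 4 lower in place of 10 and 6. Of the member probe sets, 7 were higher and 5 lower in place of 14 and 8, and the share of all probe sets is not given here. Under that block no tight junction membrane gene, no desmosomal plaque gene and not ESRP1 passed (0 in each group, in place of 2, 2 and 1), while all genes called fell to 6.31% higher and 6.10% lower. When probe sets ending in _x_at or _s_at were left out, 6 member genes and 6 member probe sets were higher. Called genes were 1 of the tight junction membrane, 0 of polarity and 1 of the adherens junction, in place of 2, 1 and 2. Of the 17098 genes read in that way, 9.65% were higher and 9.24% lower. CTNNA1 was then read from a probe set at background level (log2 change -0.00016), and PATJ did not pass (0.81, adjusted p = 0.064). Among the desmosomal cadherins 1 gene, in place of 0, passed in 4 settings. DSC2 passed with the filter on dim probe sets and with trend and robust moderation. DSG2 passed with the mean over all probe sets and with the probe set of the largest change. With the mean, 2 polarity genes in place of 1 passed, and 10 member genes were higher and 8 lower. Of all 19775 genes, 2561 were higher and 2712 lower with the mean, in place of 2495 and 2333. By the methods' t-test 20 member genes had an unadjusted p under 0.05. The share of all genes under that t-test is not given here, so this count is not read as a result. After Benjamini-Hochberg adjustment of that t-test 10 were higher and 5 lower, beside 12.0% and 11.1% of all genes. By limma, 22 of the 32 members above background level had an unadjusted p under 0.05, beside 7000 of all 11955 such genes. Leaving out 1 array gave from 7 to 10 higher and from 5 to 6 lower member genes. Over all genes, the same fits called from 9.02% to 11.6% higher and from 8.16% to 11.6% lower. They gave from 10 to 14 higher and from 6 to 8 lower member probe sets, for which the share over all probe sets is not given here. From 1 to 2 member genes were over 2-fold, GJB5 and in 2 fits PKP1. Genes called ranged from 0 to 2 in the desmosomal plaque, from 1 to 3 in the adherens junction and from 1 to 3 among tight junction membrane proteins. In these fits the log2 change of genes that did not pass crossed 0 for CLDN3 (-0.061 to 0.021), CLDN23 (-0.017 to 0.13), NECTIN4 (-0.18 to 0.043) and CRB3 (-0.14 to 0.0057). MARVELD2 passed without PC9/gef replicate 1 (adjusted p = 0.017) and NECTIN1 without PC9/gef replicate 2 (0.039), by limma. The causes of these shifts were not tested.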

Other observations

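Several genes near CLDN12 were also lower in PC9/gef. Of the 4 protein-coding genes on either side, those with a probe set of their own were read. STEAP2, CDK14 and FZD1, 3 or 4 places away, were above background level and all 3 were lower. By the same rule, 19.5% of all genes above background level were lower. GTPBP10, the nearest gene read, and CFAP69 were at background level. FZD1, a Wnt receptor, had a mean log2 value of 3.72 in PC9/gef and of 5.90 in PC9 (log2 change -2.17, SE 0.085, by limma, adjusted p = 0.00051). CDK14, a cyclin-dependent kinase gene, had a mean of 8.03 in PC9/gef and of 8.89 in PC9 (log2 change -0.86, adjusted p = 0.00044), and STEAP2, a metalloreductase gene, a mean of 4.26 in PC9/gef and of 5.35 in PC9 (log2 change -1.09, adjusted p = 0.016). These genes were chosen by position alone, and copy number was not measured. Around GJB5, 1 neighbour, HMGB4, was just above background level and did not pass (log2 change -0.011). Its mean was 2.64 in PC9/gef and 2.65 in PC9, so this is not read as a change. The gene next to GJB5 on 1 side had no probe set of its own. These values therefore say little about the region of GJB5. Around GJB2, 6 neighbours were above background level, of which ZMYM2 was higher (log2 change 0.22, adjusted p = 0.037) and PSPC1 lower (log2 change -0.25, adjusted p = 0.036), and the adjacent GJA3 and GJB6 were at background level. Around PKP1, 4 neighbours were above background level, and PHLDA3 alone passed the test, downward (log2 change -0.19, adjusted p = 0.042). The neighbour IGFN1 had a mean of 4.39 in PC9/gef and of 3.18 in PC9 (log2 change 1.21, adjusted p = 0.055).

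Members that lie next to each other were alike in some pairs and not in others. CLDN3 and CLDN4 were both above background level and did not pass, with log2 changes of -0.012 and 0.055. MARVELD2 and OCLN were both above background level, with log2 changes of 0.13 and 0.31, of which only the second passed. GJB2 was lower while GJB6 was at background level. DSC2 and DSG2 were above background level while the members next to them in the genome, DSC3 and DSG3, were at background level in both lines, and CLDN1 was higher (log2 change 0.44) while the adjacent CLDN16 was at background level.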
